A study of Mus musculus with 4 samples.

Results

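The collagens and other extracellular matrix genes of the dermis were described in back skin of 10-day-old mice with and without the shedding protease ADAM17 in keratinocytes. A list of 39 genes set the members: fibrillar, fibril-associated, beaded-filament and basement membrane collagens, proteoglycans, elastic fibre and adhesive proteins, the enzymes that trim and cross-link collagen, and surface proteins of fibroblasts and mural cells. A gene was taken where a probe on the array bears its name, and its brightest probe stood for it. This gave 38 members of 15543 genes tested. Col6a3 was not analysed here.

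The skin came from 4 mice on a mix of 129Sv and C57BL/6 background, all with both Adam17 alleles flanked by loxP sites (Adam17flox/flox). The 2 knockout (cKO) mice also carried the Krt14-Cre transgene, in which the keratin 14 promoter drives Cre in basal keratinocytes and their descendants, and the 2 controls were Cre-negative littermates. Litter 1 gave 1 control and 1 cKO animal, and so did litter 2. The matrix genes are made mainly by dermal fibroblasts, in which this promoter is not known to be active. No control carried Cre, so loss of ADAM17 and presence of Cre cannot be told apart. The sources used here give neither the animals' sex nor the sampling dates.

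Collagens I, III and V assemble into the banded fibrils that give the dermis its strength. Small leucine-rich proteoglycans and collagens XII and XIV sit on the surface of these fibrils, lysyl oxidases cross-link them, and elastin deposited on fibrillin microfibrils lets the tissue recoil. Basement membranes are instead networks of collagen IV, laminins and nidogen, under the epidermis and around vessels, nerves and muscle. In the first weeks after birth dermal fibroblasts build most of the fibrillar matrix of mouse skin.

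Each value below is the log2 of the background-subtracted spot signal minus the 75th percentile of the gene spots of that array, so 0 marks a probe as bright as that percentile. Precision is limited by having only 4 arrays, and levels of different probes cannot be compared. Between 53.7% and 56.6% of the 43379 gene spots of an array were well above background and 0 were saturated. The 2 litter 2 arrays had the lower shares (54.7% and 53.7%, against 56.2% and 56.6%). All 4 arrays lay on 1 slide, with litter 1 in positions 1 and 2 and litter 2 in positions 3 and 4, so litter and position on the slide cannot be told apart. All 38 members and all 7 markers of basal keratinocytes were well above background on all 4 arrays. Adam17 measured 0.44 and 0.37 in the controls and -0.14 and -0.12 in the cKO animals, so the groups did not overlap. Its difference was -0.54 ± 0.09 (SE), or 0.690 of the control level (adjusted p = 0.114 in limma, 0.111 with litter as a replicate block). Whole skin includes cells without Cre, and the sources used here do not say which exon was removed, so whether this probe can check the deletion is not known.

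The matrix genes separated the litters more than the genotypes. The median member measured 0.45 log2 units less in litter 2 than in litter 1 (median difference -0.45, against 0.01 over all genes), with -0.42 between the controls and -0.50 between the cKO animals. Between cKO and control the median member differed by 0.03, the same as the median of all genes (0.03). For 29 of the 38 members the litter difference was larger in size than the genotype difference, as it was for 43.8% of all genes. In bulk skin, fewer fibroblasts and less RNA per fibroblast cannot be told apart.

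No matrix gene passed the test for either comparison. In limma with Benjamini-Hochberg adjustment, 0 of 38 members passed an adjusted p of 0.05 between the genotypes (53 genes, or 0.341% of those tested, did), and 3 had an unadjusted p under 0.05 (16.2% of all genes did). With litter as a replicate block, which changed the whole-table count from 53 to 0, 0 members passed and 11 had an unadjusted p under 0.05 (23.8% of all genes). Between the litters 0 of 38 members passed (0% of all genes), while 18 had an unadjusted p under 0.05, against 6.75% of all genes. Of these 18, 17 were lower in litter 2 (4.19% of all genes) and Fbln2 was the 1 that was higher (2.55%). The adjusted p of those 18 ranged from 0.663 to 0.717 in limma, so none of the litter differences below holds after correction. With genotype in the litter model, 26 members had an unadjusted p under 0.05 (16.1% of all genes), again with 0 past the adjusted threshold. With 2 arrays against 2, the smallest p an exact permutation test can give is 0.3333. The limma p-values rest on the spread among 4 animals, moderated by that of other genes (2.37 and 2.04 prior against 2 residual degrees of freedom). With genotype alone in the model the litter difference enters that spread, and with litter alone the genotype difference does.

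Both litter 2 arrays lay below both litter 1 arrays for 28 of the 38 members (16.8% of all genes did so), and above them for 1 (20.4% of all genes), which was Fbln2. For 12 members litter 2 was lower by at least 0.5 log2 units in the control pair and in the cKO pair alike, against 1.53% of all genes. These 12 were Col1a1, Col1a2, Col3a1, Col5a1, Col5a2, Col14a1, Lum, Fmod, Eln, Lox, Adamts2 and Pi16. Across the 38 members the litter difference in the controls correlated at 0.86 with that in the cKO animals, at 0.78 over the 37 members without Fbln2 and at 0.35 over all genes. Genes are not independent replicates, and the members share the 4 arrays.

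**Figure D1:**
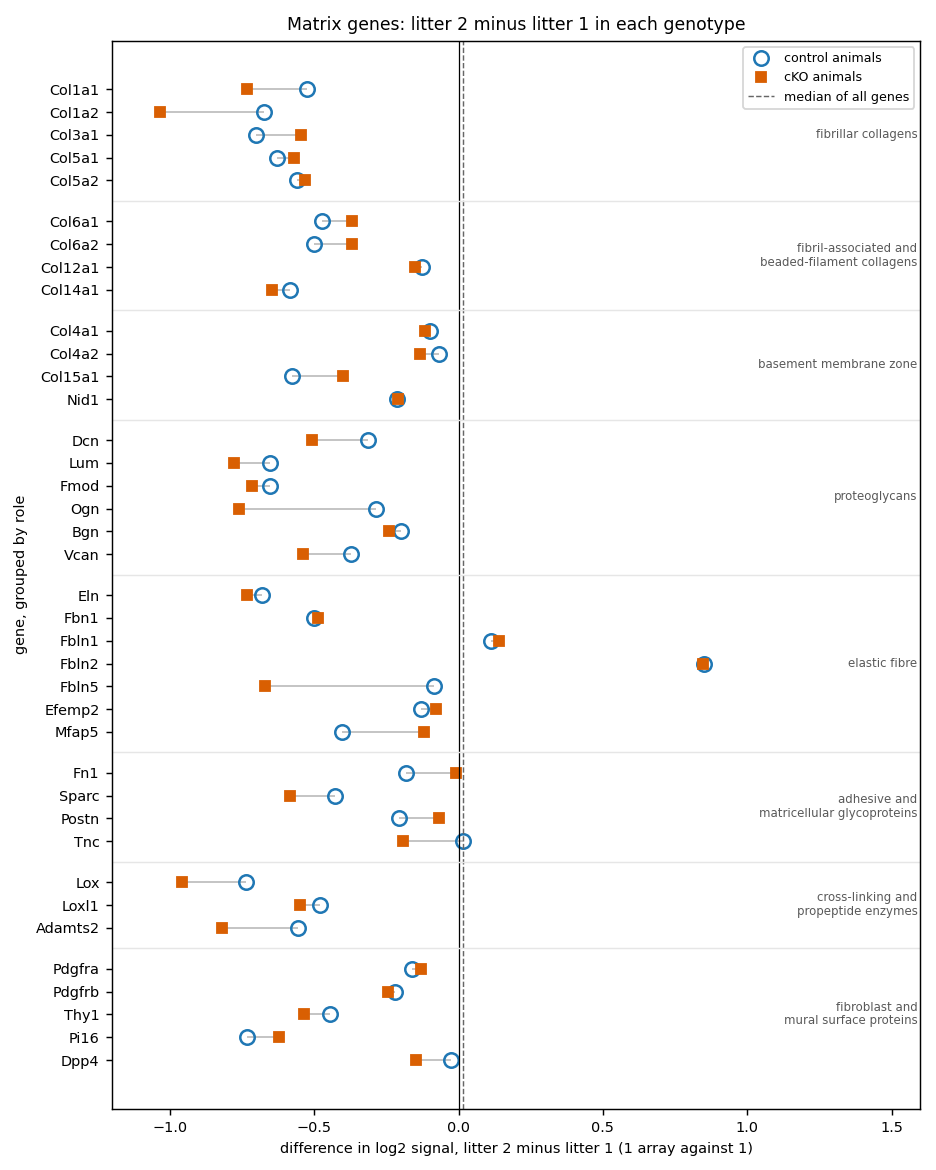
Difference in log2 signal between litter 2 and litter 1 (x axis) for each matrix gene (y axis, grouped by role), with circles for the control pair and squares for the cKO pair, 1 array against 1 for each point. Points of most collagens, proteoglycans and cross-linking enzymes lie left of 0, those of Col4a1, Col4a2 and Fn1 lie near it, and both points of Fbln2 lie at 0.85.

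The promoters of Col1a2, Col3a1 and Col5a1, fibrillar collagens that were lower in litter 2 in both genotypes, are shown with that of Fbln2, the member with the opposite difference. They were picked with their values known. Each is the stretch of 250 bases before the gene's start, from RefSeq on GRCm38.p6, on the plus strand and read 5′ to 3′. RefSeq's table held such a window for 25 of the 38 members. Capitals mark the CCAAT box, the GC box GGGCGG and the TATA motif TATAAA, each searched on both strands.
Col1a2 (chr6:4505368-4505617): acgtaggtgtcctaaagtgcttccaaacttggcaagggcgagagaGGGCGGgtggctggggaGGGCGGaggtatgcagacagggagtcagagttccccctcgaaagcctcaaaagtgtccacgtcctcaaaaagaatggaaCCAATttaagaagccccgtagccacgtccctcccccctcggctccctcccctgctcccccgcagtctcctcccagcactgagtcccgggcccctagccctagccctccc
Col3a1 (chr1:45311288-45311537): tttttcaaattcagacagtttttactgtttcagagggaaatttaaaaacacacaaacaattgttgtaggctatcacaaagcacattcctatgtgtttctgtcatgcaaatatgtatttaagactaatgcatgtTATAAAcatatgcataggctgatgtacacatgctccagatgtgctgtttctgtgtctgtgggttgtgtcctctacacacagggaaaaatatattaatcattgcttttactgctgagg
Col5a1 (chr2:27886175-27886424): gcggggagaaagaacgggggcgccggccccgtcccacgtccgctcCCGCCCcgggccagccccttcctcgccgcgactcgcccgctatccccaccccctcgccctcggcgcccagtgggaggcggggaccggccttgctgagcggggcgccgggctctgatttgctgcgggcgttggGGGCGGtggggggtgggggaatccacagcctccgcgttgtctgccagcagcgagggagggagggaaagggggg
Fbln2 (chr6:91212514-91212763): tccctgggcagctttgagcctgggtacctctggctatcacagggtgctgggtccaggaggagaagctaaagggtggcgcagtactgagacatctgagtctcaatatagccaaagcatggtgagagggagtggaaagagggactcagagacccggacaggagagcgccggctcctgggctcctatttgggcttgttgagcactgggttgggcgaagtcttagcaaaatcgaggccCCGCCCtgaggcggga
The Col1a2 window held 1 CCAAT, 109 bases before the start, and 2 GGGCGG. The Col5a1 window held 2 GGGCGG, 1 of them as the reverse complement CCGCCC. The Fbln2 window held 1, also as CCGCCC and 16 bases before the start. The Col3a1 window held neither, and 1 TATAAA 117 bases before the start. Of 32851 windows of this length, 33.85% held CCAAT, 32.74% held GGGCGG and 12.37% held TATAAA on either strand, so these matches are descriptions of the letters and not of a bound factor. No motif of the 3 stood in all 3 collagen windows.

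The fibrillar collagens were all lower in litter 2. Per array, values are given as control then cKO, first for litter 1 and then for litter 2. Col1a1, which encodes the main chain of collagen I (probe at chr11:94813075-94813134 in mm9), measured 7.89 and 7.76 in litter 1 and 7.37 and 7.02 in litter 2. Col1a2, the partner chain (chr6:4490619-4490678), measured 8.04 and 7.78, then 7.36 and 6.74. Col5a2, a chain of collagen V, which sets fibril diameter, measured 2.10 and 2.22, then 1.54 and 1.69. In each of the 3 genes both litter 2 arrays were the lowest, as in 16.8% of all genes, while the genotypes overlapped.

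Litter 1 was 1.55-fold above litter 2 for Col1a1 (difference -0.63 ± 0.16, SE), and 2 other Col1a1 probes gave -0.94 and -0.85. The ratio was 1.81-fold for Col1a2, which measured -0.67 between the controls and -1.03 between the cKO animals. Col5a2 differed by -0.54 ± 0.11 (SE). The other fibrillar chains, Col3a1 and Col5a1, differed by -0.62 ± 0.11 and -0.60 ± 0.11 (SE), and a second Col3a1 probe gave -0.69. As none passed the adjusted test, the role is described by its count. All 5 were lower in litter 2 at an unadjusted p under 0.05 (4.19% of all genes were). Between the genotypes 0 of 5 had an unadjusted p under 0.05, against 16.2% of all genes. Col1a1, Col1a2, Col3a1 and Col5a1 were lower in cKO skin in both litters (32.1% of all genes were), by -0.24, -0.44, -0.13 and -0.12 on average. Col5a2 was higher in both (0.14), as were 40.4% of all genes. With litter as a replicate block Col1a2 had an unadjusted p under 0.05 for genotype (adjusted p = 0.180 in limma, against 0.661 without it).

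Of the 4 fibril-associated and beaded-filament collagens, 3 were higher in cKO skin in both litters (40.4% of all genes were) and 1, Col12a1, had an unadjusted p under 0.05 for genotype (16.2% of all genes). Col6a1 and Col6a2 encode chains of collagen VI, a network of beaded filaments around cells. Col6a1 measured 2.31 and 2.51 in litter 1 and 1.83 and 2.14 in litter 2. Col6a2 measured 1.46 and 1.72, then 0.96 and 1.35. Both were highest in the cKO animal of litter 1 and lowest in the control of litter 2, so that the cKO animal exceeded its littermate each time while the genotypes overlapped. The cKO difference was 0.25 ± 0.22 for Col6a1 and 0.32 ± 0.23 for Col6a2 (SE), and the litter difference -0.42 and -0.44. The litter difference enters these SEs of the cKO difference. With litter as a replicate block they were 0.070 and 0.073 (adjusted p = 0.182 and 0.157 in limma). A second Col6a2 probe gave the opposite litter difference, 0.51, and averaged over its probes the gene's litter difference was 0.04.

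Col12a1, the collagen XII gene (chr9:79447270-79447329, mm9), measured 0.04 and 0.48 in litter 1 and -0.09 and 0.33 in litter 2. Both cKO arrays lay above both controls, by 0.44 and 0.42 in the litters, a 1.35-fold mean difference (0.43 ± 0.10, SE). Its other probe gave 0.45. Of the members it had the lowest adjusted p for genotype, 0.194 in limma and 0.119 with litter as a replicate block, and did not pass. Col14a1, the gene of the related collagen XIV, measured 2.53 and 2.48 in litter 1 and 1.94 and 1.84 in litter 2, with the litters apart (-0.61 ± 0.09, SE) and the genotypes overlapping (-0.07).

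Among the member collagens, by the probe used for each gene, the collagen IV genes differed least between the litters. Col4a1 and Col4a2 encode the usual collagen IV chains and are transcribed from one shared promoter region in opposite directions. Col4a1 measured 3.15 and 3.29 in litter 1 and 3.06 and 3.18 in litter 2. Col4a2 measured 3.45 and 3.62, then 3.38 and 3.49. In both genes the cKO arrays were the 2 highest, but by small margins (0.13 ± 0.10 and 0.14 ± 0.10, SE), and the litters overlapped (-0.11 and -0.10). Nid1, which encodes the linker protein nidogen 1, measured 3.66 and 3.86, then 3.45 and 3.65. Its litter 2 arrays lay just below the litter 1 arrays (-0.21 ± 0.13, SE), and its cKO animals were 0.20 higher in each litter. Col15a1, a collagen at the border of basement membranes and fibrils, measured 0.50 and 0.51, then -0.08 and 0.10. It differed between the litters by -0.49 ± 0.11 (SE), unlike the collagen IV chains in value; the difference between these genes was not tested. Of the 4 genes in this role, all were higher in cKO skin in both litters (40.4% of all genes were), with 0 past the test.

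All 6 proteoglycan genes had both litter 2 arrays below both litter 1 arrays (16.8% of all genes did). Lum encodes lumican, which regulates the spacing of collagen fibrils, and measured 4.66 and 4.55 in litter 1 and 4.00 and 3.77 in litter 2. Fmod, the gene of fibromodulin, measured -1.35 and -1.48, then -1.999 and -2.20. Ogn, the gene of osteoglycin, measured 1.76 and 1.55, then 1.47 and 0.79. The cKO animal of litter 2 was the lowest in all 3, and for Ogn it stood 0.68 below its littermate. Vcan encodes versican, a large proteoglycan that binds hyaluronan. It measured -1.48 and -1.08 in litter 1 and -1.85 and -1.61 in litter 2, with the cKO animal above its littermate each time.

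Litter 1 was 1.64-fold above litter 2 for Lum (-0.72 ± 0.13, SE) and 1.61-fold for Fmod (-0.69 ± 0.12, SE). The difference was -0.52 for Ogn and -0.46 for Vcan. The other members, Dcn (decorin) and Bgn (biglycan), differed by -0.41 and -0.22. Dcn, Lum and Fmod were lower in litter 2 at an unadjusted p under 0.05 (4.19% of all genes were). The lowest adjusted p of the role was 0.663 in limma. Between genotypes Lum, Fmod and Ogn were lower in cKO skin in both litters (32.1% of all genes were), with mean differences of -0.17, -0.17 and -0.44. Vcan and Bgn were higher in both (0.32 and 0.09), as were 40.4% of all genes. For genotype 0 of 6 had an unadjusted p under 0.05, against 16.2% of all genes.

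**Figure D2:**
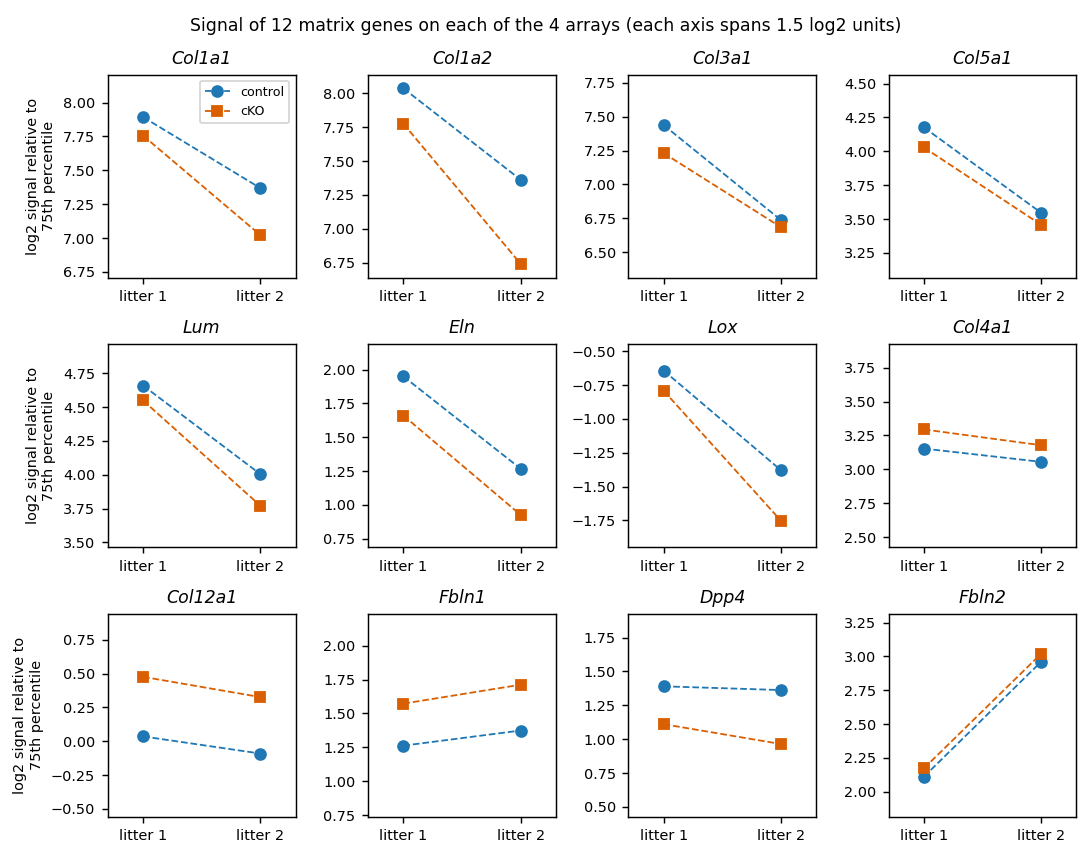
Log2 signal relative to the array's 75th percentile (y axis, each spanning 1.5 units) of 12 matrix genes on the control (circles) and cKO (squares) array of each litter (x axis); dashed lines join different animals of a genotype, and the 12 genes were picked with their values known. The lines of Col1a1, Col1a2, Col3a1, Col5a1, Lum, Eln and Lox drop from litter 1 to litter 2, those of Fbln2 climb from 2.11 and 2.17 to 2.96 and 3.02, and for Col12a1, Fbln1 and Dpp4 the 2 genotypes stay apart in both litters.

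Within the elastic fibre genes the litter differences had both signs. Eln, which encodes the elastin precursor, measured 1.95 and 1.66 in litter 1 and 1.27 and 0.93 in litter 2. Fbln2, which encodes fibulin-2, a glycoprotein of microfibrils and basement membranes (chr6:91222118-91222177, mm9), measured 2.11 and 2.17, then 2.96 and 3.02. The 2 genes separated the litters in opposite directions and with no overlap. Eln was 1.63-fold higher in litter 1 (-0.71 ± 0.18, SE) and Fbln2 1.80-fold higher in litter 2 (0.85 ± 0.09, SE; adjusted p = 0.663 in limma for each). In Fbln2 the difference was 0.85 in the controls and 0.85 in the cKO animals, while cKO and control differed by 0.06 in each litter. Eln was lower in cKO skin in both litters, by -0.29 and -0.34.

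Fbln1, which encodes fibulin-1 (chr15:85115998-85116057, mm9), measured 1.26 and 1.57 in litter 1 and 1.37 and 1.71 in litter 2. Its cKO arrays lay above both controls, a 1.25-fold difference (0.32 ± 0.10, SE; adjusted p = 0.254 in limma, 0.139 with litter as a replicate block), and its other probe gave 0.31. Mfap5, the gene of a small microfibril-associated glycoprotein, measured 0.12 and 0.29, then -0.29 and 0.16. Its cKO arrays were likewise the 2 highest, but the spread was larger (0.31 ± 0.16, SE). The other 3, Fbn1 (fibrillin-1), Fbln5 (fibulin-5) and Efemp2 (fibulin-4), had litter differences from -0.49 for Fbn1 to -0.10 for Efemp2. Fbln5 was low on 1 array: it measured 2.76, 2.76 and 2.67 on the others and 2.09 in the cKO animal of litter 2. Efemp2 was below the controls on both cKO arrays (-0.19 ± 0.10, SE).

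Among the adhesive and matricellular glycoproteins, Sparc separated the litters most. Sparc, which encodes the collagen-binding protein osteonectin, measured 5.81 and 5.90 in litter 1 and 5.38 and 5.31 in litter 2. Its litter difference was -0.51 ± 0.10 (SE), with -0.66 at its other probe, and its genotype difference was 0.01. Fn1, the fibronectin gene, measured 1.97 and 1.89, then 1.78 and 1.88. All 4 values were close, and cKO minus control was -0.08 in litter 1 and 0.10 in litter 2. Postn, the gene of periostin, which aids collagen cross-linking, measured 4.31 and 4.49, then 4.11 and 4.42. Tnc, the tenascin-C gene, measured 0.77 and 1.01, then 0.78 and 0.82. In Postn and Tnc both cKO arrays lay above both controls (0.24 ± 0.11 and 0.14 ± 0.10, SE), with neither past the test (adjusted p = 0.387 and 0.567 in limma).

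The 3 enzymes that finish collagen outside the cell were all lower in litter 2 at an unadjusted p under 0.05 (4.19% of all genes were). Lox encodes lysyl oxidase, the cross-linking enzyme, and measured -0.64 and -0.79 in litter 1 and -1.38 and -1.75 in litter 2. Loxl1, a lysyl oxidase relative needed for elastic fibres, measured 2.02 and 1.99, then 1.54 and 1.44. Adamts2, which encodes the protease that removes the amino-terminal propeptide of procollagen, measured 3.29 and 3.22, then 2.73 and 2.40. No litter 2 array reached a litter 1 array in any of them, as in 16.8% of all genes. Litter 1 exceeded litter 2 by 1.80-fold for Lox (-0.85 ± 0.17, SE), by 1.43-fold for Loxl1 and by 1.61-fold for Adamts2, whose other probes gave -0.49 and -0.61. All 3 were lower in cKO skin in both litters (32.1% of all genes were), by -0.26, -0.07 and -0.21 on average, with adjusted p from 0.796 upward in limma.

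The surface proteins of fibroblasts and mural cells were not uniform. Thy1, a general marker of dermal fibroblasts, measured 4.11 and 4.19 in litter 1 and 3.66 and 3.65 in litter 2 (-0.49 ± 0.09, SE). Pdgfra, the receptor through which fibroblasts respond to platelet-derived growth factor, measured 0.12 and 0.25, then -0.04 and 0.12. Both had litter 2 below litter 1, but for Pdgfra the difference was only -0.15 ± 0.11 (SE), and for Pdgfrb, the receptor of mural cells, it was -0.23. Pi16, a marker of fibroblasts around vessels and in fascia, measured 1.31 and 1.72, then 0.57 and 1.10. The cKO animals were 0.42 and 0.53 above their littermates, the largest mean genotype difference of any member (0.47). Its SE was 0.34, which the litter difference enters, and 0.070 with litter as a replicate block (adjusted p = 0.553 and 0.120 in limma). The litters stood apart by -0.68 for Pi16. Dpp4, which encodes the peptidase CD26 found on a subset of dermal fibroblasts (chr2:62170062-62170121, mm9), measured 1.39 and 1.11, then 1.36 and 0.96. It was below the controls on both cKO arrays, 1.26-fold lower (-0.34 ± 0.10, SE; adjusted p = 0.230 in limma, 0.146 with litter as a replicate block). Its 2 other probes gave -0.31 and -0.38. Its litter difference was -0.09 at the probe used, and -0.15 and -0.55 at the 2 others.

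Between the genotypes, then, Col12a1, Fbln1 and Dpp4 were the 3 members with an unadjusted p under 0.05. The cKO arrays lay above both controls for 7 of 38 members (28% of all genes), which were Col12a1, Col4a1, Col4a2, Fbln1, Mfap5, Postn and Tnc. They lay below both for Efemp2 and Dpp4, or 2 of 38 (21.4% of all genes). These shares are not above those of all genes. The sign was the same in both litters for 33 members, 19 of them higher in cKO skin (40.4% of all genes) and 14 lower (32.1%). The members' mean genotype differences ran from -0.44 (Ogn) to 0.47 (Pi16). Leaving out 1 array makes the litters unequal between the genotypes: the members' median genotype difference was then 0.19 without the control and -0.15 without the cKO animal of litter 1, and -0.18 without the control and 0.21 without the cKO animal of litter 2. The median standard error of the genotype difference was 0.25 for the members and 0.11 for all genes, as the litter difference enters it; for the litter difference it was 0.12 for both. The 11 members with an unadjusted p under 0.05 with litter as a replicate block were Col1a2, Eln and Dpp4, lower in cKO skin, and Col6a1, Col6a2, Col12a1, Nid1, Vcan, Fbln1, Postn and Pi16, higher, with adjusted p from 0.119 to 0.206 in limma. Across the 38 members the genotype difference in litter 1 correlated at 0.82 with that in litter 2, against 0.58 over all genes.

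**Figure D3:**
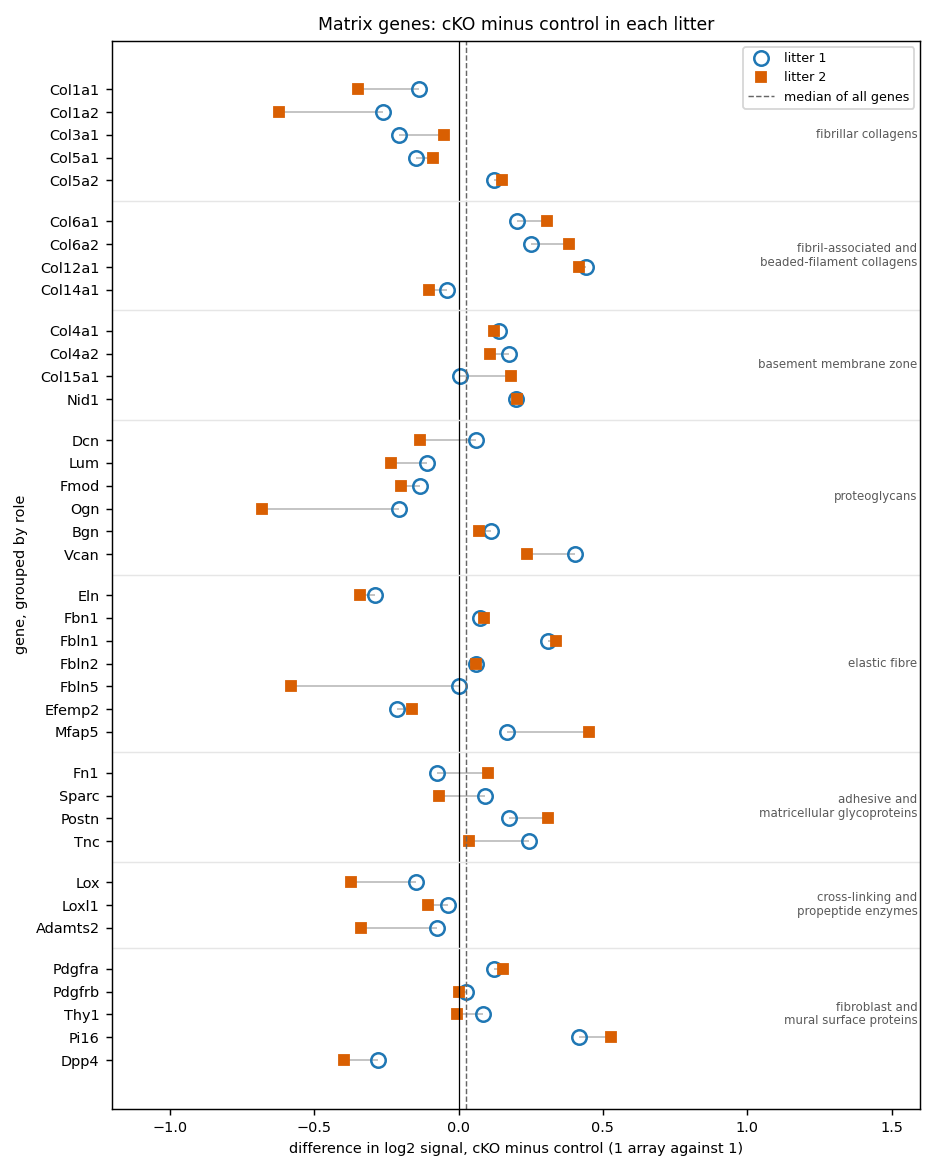
Difference in log2 signal between cKO and control (x axis) for each matrix gene (y axis, grouped by role), with circles for litter 1 and squares for litter 2, 1 array against 1 for each point. Most points lie within 0.5 of 0 on both sides; the basement membrane genes and Col12a1 lie right of 0 and the cross-linking and propeptide enzymes left of it.

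By role, the median litter difference was -0.62 for the fibrillar collagens, -0.69 for the cross-linking and propeptide enzymes, -0.49 for the proteoglycans and -0.43 for the fibril-associated and beaded-filament collagens. It was smaller in size for the elastic fibre genes (-0.26), the surface proteins (-0.23), the basement membrane genes (-0.16) and the adhesive glycoproteins (-0.12). The median genotype difference was negative for the enzymes (-0.21), the fibrillar collagens (-0.13) and the proteoglycans (-0.10), and highest for the fibril-associated and beaded-filament collagens (0.29) and the basement membrane genes (0.14). Differences between roles were not tested.

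Of 20 tested genes for collagen folding, modification and processing, inside and outside the cell, 8 were lower in litter 2 and 0 higher at an unadjusted p under 0.05 (4.19% and 2.55% of all genes, which also stand beside the counts of the next lists). The list's median litter difference was -0.16. The 8, named after their values were seen, were the prolyl hydroxylase genes P4ha2, P3h1 and P3h3, the chaperone genes Serpinh1 (-0.39) and Fkbp10 (-0.59), the propeptidase enhancers Pcolce (-0.30) and Pcolce2 (-1.11), and Loxl2. Of 23 other collagens 4 were lower and 0 higher, of 12 other elastic fibre genes 3 and 0, of 10 other proteoglycans 2 and 0, and of 17 other basement membrane genes 1 and 0. The median litter differences of these 4 lists ran from -0.22 for the elastic fibre genes to -0.08 for the basement membrane genes. The TGF-beta list held 13 tested genes for the ligands, their receptors and their targets. TGF-beta is the main inducer of matrix genes in fibroblasts, but not every listed target induces matrix. Of the 13, 4 were lower and 0 higher, with a median of -0.12. Of 8 hyaluronan genes 0 were lower and 1 higher (median 0.06).

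None of these genes passed the adjusted test in either comparison in limma. For genotype, the genes of each list with the smallest p were as follows. Plod2 and P3h2, both collagen-modifying hydroxylases, differed by -0.48 and 0.42. Col6a4 differed by -0.98 ± 0.12 (SE; adjusted p = 0.0815 in limma) and Col5a3 by 0.50. Efemp1 and Mgp differed by 0.59 and 0.49, Omd and Podn by 0.45 and 0.40, and the laminin chain gene Lamb3 by 0.25. Ccn2, a target of TGF-beta, differed by 0.65 ± 0.09 (SE; adjusted p = 0.0923 in limma) and Tgfbr2 by 0.32. Hyal1 and Has1 differed by -0.75 and 0.21. At an unadjusted p under 0.05 for genotype, 8.04% of all genes were higher and 8.12% lower in cKO skin. The other basement membrane genes numbered 3 higher and 0 lower of 17, the other elastic fibre genes 3 and 0 of 12, and the other collagens 4 and 3 of 23. The other proteoglycans numbered 2 and 0 of 10, and the TGF-beta list 2 and 1 of 13. Collagen folding, modification and processing numbered 0 and 1 of 20, and the hyaluronan genes 0 and 1 of 8.

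Markers of other cell types differed from list to list. The 38 members' summed signal, in multiples of the array's 75th percentile, was 990 and 914 in litter 1 and 686 and 585 in litter 2 (control, then cKO). That of the 5 fibrillar collagens was 696 and 607, then 451 and 354. Such sums are weighted toward the brightest probes, here Col1a2, Col1a1 and Col3a1 (8.04, 7.89 and 7.44 in the litter 1 control). They do not describe each gene of a list, and the marker sums below share this limit. Markers of basal keratinocytes were near level, at 647 and 711, then 657 and 692, with a median litter difference of 0.03 and 0 of 7 with both litter 2 arrays below both litter 1 arrays, called separating the litters downward here (16.8% of all genes). Fat cell markers summed to 347 and 401, then 256 and 370, and skeletal muscle markers to 683 and 758, then 526 and 779. Both were lower in the litter 2 control than in the litter 1 control, while the cKO animals of the litters were closer. The median litter difference was -0.17 for 9 fat cell markers and -0.18 for 10 skeletal muscle markers, with 2 and 1 of them separating the litters downward. Schwann cell markers summed to 4.94 and 4.47, then 3.16 and 2.66. Their median litter difference was -0.65, and 4 of 4 separated the litters downward, including S100b (-0.88). For macrophages it was -0.41 with 3 of 5, for endothelium -0.25 with 4 of 6, and for red cells -0.50 with 2 of 3. Papillary fibroblast markers had a median of -0.03 with 1 of 7, reticular and hypodermal fibroblast markers -0.13 with 1 of 7, smooth muscle and pericyte markers 0.01 with 1 of 6, and suprabasal keratinocyte markers 0.11 with 0 of 6. Upward, 3 markers separated the litters (20.4% of all genes), named after their values were seen. They were Rgs5, 1 of 6 smooth muscle and pericyte markers (0.71), Krt15, 1 of 7 basal keratinocyte markers (0.17), and Nkd2, 1 of 7 papillary fibroblast markers (0.16). No other marker list held such a gene. All tested markers were well above background on all 4 arrays, so no list was at 0, and the part of these cells in the matrix genes' litter difference was not tested.

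For genotype, the median difference was 0.68 for suprabasal keratinocytes, 0.55 for fat cells, 0.41 for skeletal muscle and 0.23 for reticular and hypodermal fibroblasts. It was 0.18 for macrophages, 0.16 for basal keratinocytes, 0.14 for papillary fibroblasts, 0.04 for smooth muscle and pericytes, -0.07 for Schwann cells, -0.11 for endothelium and -0.37 for red cells. None of these markers passed the adjusted test. Those with the smallest p were Krt1 (1.74) and Flg (1.54) among suprabasal markers, Retn (1.68) and Cidec (0.64) for fat, and Mb (0.84) and Myh2 (0.75) for muscle. They were Mgp (0.49) and Anxa3 (-0.48) for reticular, and Apcdd1 (0.42) and Wif1 (0.31) for papillary fibroblasts. Among vessel and blood markers they were Tagln (-0.63) and Des (0.48), Tek (-0.63) and Kdr (-0.45), and Slc4a1 (-0.92) and Hba-a1 (-0.37). The rest were Col17a1 (0.37) and Itga6 (0.24) for basal keratinocytes, Lyz2 (0.57) and Cd68 (0.18) for macrophages, and S100b (-0.32) for Schwann cells. Collagen VI, collagen IV and laminin are also made outside the dermal fibroblast, by fat, muscle and vessel cells, and the part of those cells in the cKO values above was not tested.

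**Figure D4:**
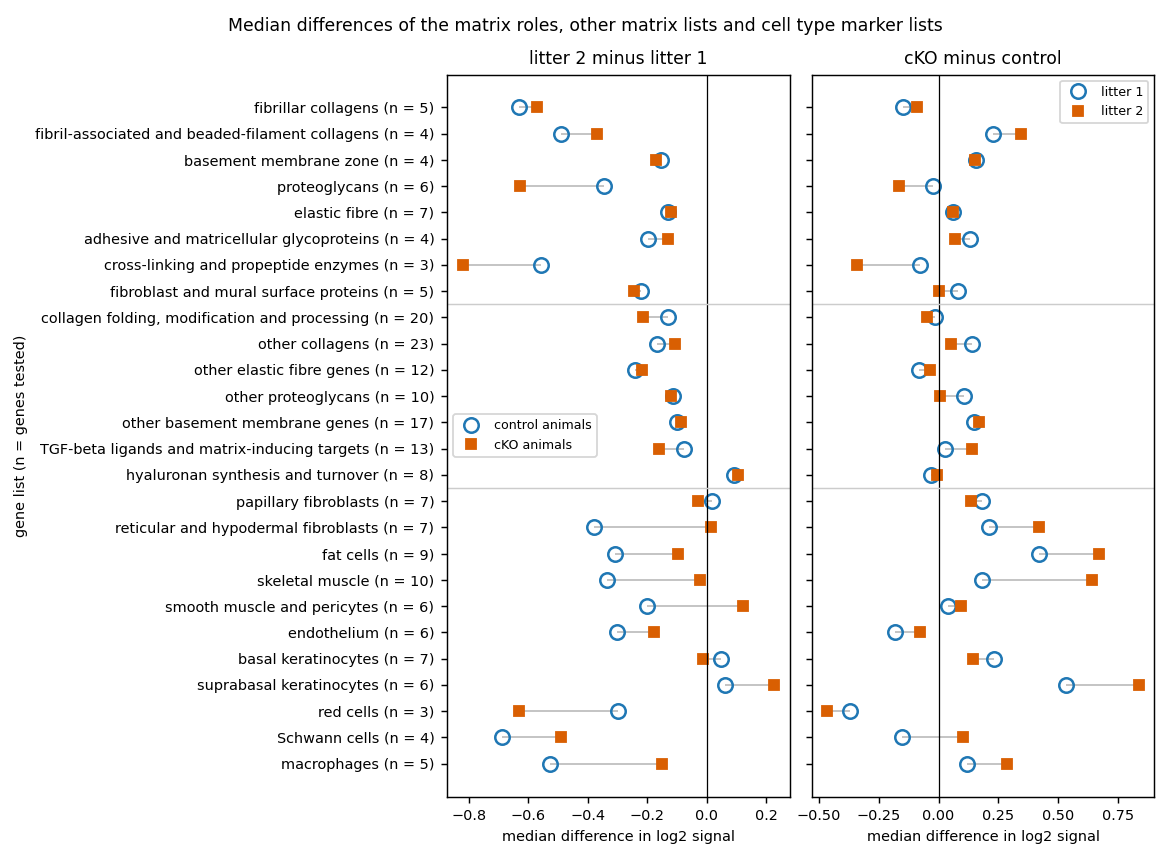
Median difference in log2 signal (x axes) of the 8 matrix roles, 7 other matrix lists and 11 cell type marker lists (y axis, separated by lines), for litter 2 minus litter 1 in each genotype (left) and for cKO minus control in each litter (right), with n the number of genes tested. On the left both points of the fibrillar collagens (-0.63 and -0.57) and of the enzymes (-0.56 and -0.82) lie below -0.5, and those of the basement membrane genes near -0.16; on the right the matrix roles lie between -0.34 and 0.34 and the suprabasal, fat and muscle markers farther right in litter 2.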

How the data were processed

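Per the labels' protocols, RNA from back skin was labelled with Cy3 and hybridised to 1-colour Agilent whole mouse genome arrays (4 arrays, 2 per genotype). Agilent Feature Extraction is given as version 10.5 in the submitters' processing notes and as 10.7.3.1 in the file headers. The deposited scanner files hold the authors' intensity values per spot, of which the background-subtracted, detrended processed signal was used, with mean signal and local background for 1 alternative. The deposited series table holds the authors' log2 values, centred per probe. Its columns correlated at 0.996 or more with values computed here in the same way and had medians of -0.08, -0.06, 0.06 and 0.08 (control and cKO of litter 1, then of litter 2). It served as an alternative.

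Control spots and spots flagged as outliers (51 to 66 per array) were left out, spots of a probe were averaged, and log2 signals were set relative to each array's 75th percentile (a signal of 751 to 784). Probes entered where some group had both its arrays well above background (22180 of 41174). The brightest probe stood for each gene. Names came from the files' accession through RefSeq (GRCm38.p6) for 26690 probes, a current symbol for 5189, a synonym for 952 and the files' name for 8343. Probe positions are the files' own (mm9), without exon annotation. Of the members' 72 probes, 56 passed. Of 18 further probes in 15 members, 17 had the litter sign of the probe used and 16 its genotype sign; the exceptions were probes of Col6a2 (litter), and of Sparc and Fn1 (genotype).

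Comparisons used lmFit and eBayes of limma 3.58.1 under R 4.3.3 (all 4 arrays, two-sided, Benjamini-Hochberg over 15543 genes, threshold 0.05), with genotype alone or litter alone in the model, 2 residual degrees of freedom and 2.37 and 2.04 prior ones. The fitting code was tested on simulated data. Replicate numbers pair the animals because the labels say that a number marks a litter. Deviations from the group means correlated at 0.35 across genes between the genotypes. This is the same statistic as the correlation of the litter differences over all genes given above. It is no separate check of the pairing, as litter and slide position coincide. Litter as a replicate block, genotype as a covariate, other scalings, filters and probe rules, and each array left out were alternatives. Values per array are given, in each role, for the 3 members with the largest genotype difference and the 2 with the largest litter difference in size. Up to 4 genes past the threshold of each other list, or else the 2 with the smallest genotype p, are named, except that some are not reported here. Members, roles and lists were chosen with earlier results of these data known, so their counts are descriptions beside those of all genes.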

Additional observations from a re-analysis of the deposited data

Results flagged for a closer look

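For 5 members cKO minus control had opposite signs in the litters, and for 1 the litter difference had opposite signs in the genotypes; each rests on 1 array against 1, and the differences were not tested. Dcn measured 0.06 in litter 1 and -0.14 in litter 2, so litter 2 minus litter 1 of the genotype difference was -0.20. For Fbln5 the values were 0.0012 and -0.58, a change of -0.58. Fn1 went from -0.08 to 0.10, a change of 0.18. Sparc went from 0.09 to -0.07, a change of -0.16. Thy1 measured 0.08 and -0.0067, a change of -0.090. For Tnc, litter 2 minus litter 1 was 0.01 in the controls and -0.19 in the cKO animals, a change of -0.21.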

How the results depend on the processing

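Between the genotypes 0 members passed under every setting run. The genes passing numbered 53, against 163 with normexp and quantile normalization, 109 with median scaling, 28 when well above background on all 4 arrays, 0 without the filter on dim probes, 0 with litter as a replicate block (the pairing changed no call of a member) and 0 to 38 with 1 array left out (0 without either control array, 38 and 24 without the cKO array of litter 1 and 2). Between the litters 1 gene passed with normexp and quantile normalization and 0 to 4 with 1 array left out (4 without the litter 2 control). The members' median litter difference ran from -0.49 to -0.38 with 1 array left out, where 16 to 20 members had an unadjusted p under 0.05 and 30 to 34 (29.5% to 33.2% of all genes) had litter 2 below litter 1. With median scaling these were 25 members, with 12.4% of all genes below and 27.9% above. The last 2 counts were added after seeing the data.

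Leaving out 1 array leaves the litters unequal between the genotypes, and the members' median genotype difference then ran from -0.18 to 0.21. Among the members named by rule, genotype differences that took both signs ran from -0.61 to 0.13 (Col1a1), -0.96 to 0.076 (Col1a2), -0.39 to 0.25 (Col14a1), -0.56 to 0.22 (Lum), -0.53 to 0.19 (Fmod), -0.68 to 0.052 (Eln), -0.36 to 0.49 (Fbln2), -0.74 to 0.22 (Lox), -0.34 to 0.20 (Loxl1), -0.62 to 0.20 (Adamts2), -0.14 to 0.42 (Col5a2), -0.20 to 0.38 (Col15a1), -0.28 to 0.30 (Sparc), -0.23 to 0.31 (Thy1) and -0.080 to 0.10 (Fn1). Signs turned without the control of litter 1 or the cKO animal of litter 2 in Col1a1, Col14a1, Lum, Fmod, Eln, Fbln2, Lox, Loxl1 and Adamts2, only without the latter in Col1a2, without the cKO animal of litter 1 or the control of litter 2 in Col5a2, Col15a1, Sparc and Thy1, and without the litter 2 control in Fn1. Litter differences that did so ran from -0.043 to 0.29 (Fbln1), -0.29 to 0.11 (Dpp4), -0.36 to 0.082 (Col12a1), -0.21 to 0.033 (Tnc) and -0.29 to 0.017 (Postn), turning without the litter 1 control or the litter 2 cKO animal in Fbln1 and Dpp4, without the litter 1 cKO animal in Col12a1 and Tnc, and without the litter 2 control in Col12a1 and Postn. Among the other 8 members, genotype differences ran from -0.48 to 0.22 (Col3a1), -0.43 to 0.20 (Col5a1), -0.29 to 0.22 (Dcn), -0.029 to 0.21 (Bgn), -0.17 to 0.33 (Fbn1), -0.63 to 0.045 (Fbln5) and -0.11 to 0.14 (Pdgfrb), and the litter difference of Efemp2 from -0.21 to 0.0027. With the mean of all probes of a gene the genotype difference was -0.029 for Fn1 and -0.069 for Sparc, and the litter difference 0.039 for Col6a2. Of the 30 members named by rule, 15 kept their direction for genotype and 24 for litter in every setting, and over settings the lowest adjusted p in limma was 0.119 and 0.229.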
